A study of Mus musculus with 10 samples.

Results

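The growth hormone and STAT5 axis was followed through 10 genes: the receptor Ghr, the kinase Jak2, the transcription factors Stat5a and Stat5b, the secreted products Igf1 and Igfals, the feedback inhibitors Socs2 and Cish, and the transcriptional regulators Bcl6 and Cux2. Members were taken by gene symbol, and each of the 10 symbols matched 1 of 55421 gene identifiers. All 10 passed the filter of at least 10 counts summed over the samples, which 22449 genes passed. The genes were chosen from the known pathway with KO and control values of these livers already seen. Their KO against control values are therefore given as a description, without p-values.

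Whole-liver RNA from 10 male mice was sequenced. H3.3 KO livers (n = 4) came from H3f3a fl/fl H3f3b fl/fl mice given AAV8-Tbg-Cre, a liver-directed virus that expresses Cre recombinase from the hepatocyte promoter Tbg. WT Cre controls (n = 3) were wild-type mice given the same virus. MCS controls (n = 3) were floxed mice given AAV8-Tbg-MCS, which carries no Cre. Virus was injected at 6 months of age and livers were collected 3 weeks later. The floxed genes, which encode the replication-independent histone H3.3, are deleted only in cells that took up the virus and use the promoter, so other liver cells keep them. The genotype field of the labels names HIRA fl/fl for floxed mice where titles name H3f3a and H3f3b, and groups follow the titles. The control columns were told apart as WT Cre or MCS by the number in the library names only. Values for KO over the 6 pooled controls are free of that assignment.

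Pituitary growth hormone binds GHR on hepatocytes, which activates JAK2. JAK2 phosphorylates STAT5A and STAT5B, and these enter the nucleus and bind the inverted repeat TTCNNNGAA. In liver the pathway drives IGF1 production and its own inhibitors, and the pulsatile male and near-continuous female patterns of hormone secretion set much of the sex difference in liver gene expression. CUX2 is a female-biased regulator and BCL6 a male-biased repressor in mouse liver. Neither growth hormone nor STAT5 phosphorylation was analysed here.

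The sequences below, taken from RefSeq (GRCm38.p6), show where the letters of the STAT5 repeat, or of the CUX-family motif ATCGAT for Cux2, lie beside starts of 4 members. Capitals mark the motif. Cish (chr9:107296559-107296688, plus strand, 100 bases before to 30 after a start) held a tandem pair at bases 1 and 12 of the transcript.

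Cish: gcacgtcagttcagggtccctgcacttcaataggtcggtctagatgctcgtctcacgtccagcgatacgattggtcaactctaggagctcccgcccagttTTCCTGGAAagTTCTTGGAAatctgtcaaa

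The second Bcl6 start (chr16:23981284-23981483, minus strand) had 3 matches, 168, 122 and 88 bases before the start.

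Bcl6: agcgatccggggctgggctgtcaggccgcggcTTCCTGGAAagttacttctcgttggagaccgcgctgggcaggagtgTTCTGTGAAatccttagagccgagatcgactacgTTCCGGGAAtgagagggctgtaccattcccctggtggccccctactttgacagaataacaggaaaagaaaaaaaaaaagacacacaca

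An Igfals start (chr17:24878111-24878230, plus strand) had a match 58 bases before it.

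Igfals: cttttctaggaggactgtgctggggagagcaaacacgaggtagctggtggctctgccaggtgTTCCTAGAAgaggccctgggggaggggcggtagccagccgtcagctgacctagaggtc

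For Cux2, the gene with the largest difference between KO and control livers among the 10, a start at chr5:122047826-122047975 (minus strand) had ATCGAT 72 bases before it.

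Cux2: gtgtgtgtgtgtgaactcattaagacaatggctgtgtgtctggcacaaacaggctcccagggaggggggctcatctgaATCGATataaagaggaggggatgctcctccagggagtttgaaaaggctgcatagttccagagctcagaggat

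The 300-base windows from 250 bases before to 50 after each start were searched on both strands. TTCNNNGAA was present in 5 of 16 windows of the 9 members in the RefSeq table, which belonged to Bcl6, Cish and Igfals, and in 8.30% of all 32851 windows. ATCGAT was present in 1 of the 16 and in 0.925% of all. The matches marked above do not overlap each other, and a match is a description of sequence, not of binding. Counts per gene do not show which start was used.

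H3f3a fell from 62.1 ± 1.58 CPM (the count scaled to the library's depth with TMM factors, SD, n = 6) in controls to 17.4 ± 1.66 (n = 4) in KO livers, and H3f3b fell from 160.0 ± 24.0 to 50.5 ± 7.40. Libraries held 14998426 to 26096141 counts, the smallest being KO 1. MCS 3 stood apart in acute phase genes: Saa1, a serum amyloid gene, was at 1706 CPM there and at 17.4 to 58.3 CPM in the other 5 controls. Summed over 10 hepatocyte markers, controls held 111967 to 159159 CPM and KO livers 84561 to 98331 CPM, and 7 markers fell with none at 0 (2 against WT Cre alone and 8 against MCS alone). All 8 Kupffer cell and all 8 stellate cell markers rose, with sums of 191 to 369 against 448 to 977 CPM and of 114 to 157 against 336 to 590 CPM. Against either kind of control alone, 8 Kupffer cell and 7 stellate cell markers rose. By the rule behind these counts (edgeR, adjusted p under 0.05), 19.7% of all genes rose and 16.6% fell against the pooled controls. In whole liver, fewer hepatocytes and less RNA per hepatocyte cannot be told apart, and the part of these shifts in the values below was not tested.

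Of the 10 members, 5 met the call rule (edgeR, adjusted p under 0.05) in KO against the pooled controls: Jak2 and Cux2 were higher, and Ghr, Stat5b and Igf1 were lower. The rule was met by 36.3% of all 22449 genes tested, 19.7% higher and 16.6% lower. Only Cux2 also passed an absolute log2 fold change over 1, as 18.7% of genes did. For 3 members (Ghr, Igf1 and Cux2) all KO livers lay beyond all controls, as for 24.5% of genes. The members' median log2 fold change was -0.34, and that of all genes was -0.003.

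**Figure D1:**
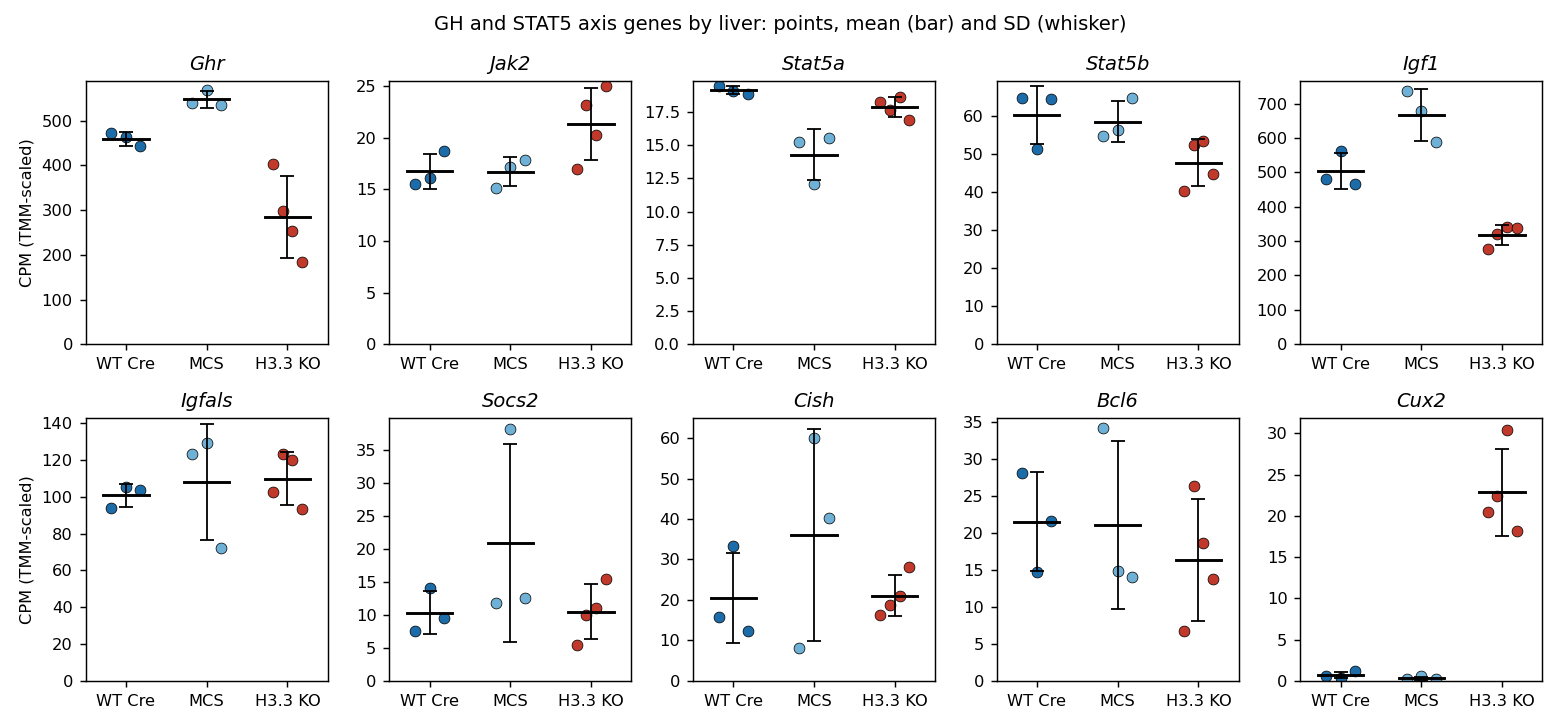
Each point is the level of a gene in 1 liver (CPM, y axis from 0) in WT Cre (n = 3), MCS (n = 3) and H3.3 KO (n = 4) mice, with the mean as a bar and the SD as a whisker. Ghr and Igf1 lay lower and Cux2 higher in all 4 KO livers than in all 6 controls, whereas Socs2, Cish and Bcl6 overlapped between KO and control livers and spread widely among the controls.

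Ghr (chr15:3317760-3583492, mm10, minus strand) encodes the receptor that starts the pathway. It was at 473, 463 and 442 CPM in WT Cre livers, 539, 569 and 535 CPM in MCS livers, and 404, 297, 254 and 184 CPM in KO livers. All KO livers lay below all controls, and KO 1 was nearest to them. The means were 504 ± 50.9 (SD, n = 6) and 285 ± 91.8 CPM (n = 4), a 1.77-fold lower level in KO and a log2 fold change of -0.82 (SE 0.181). It was -0.69 (SE 0.199) against WT Cre and -0.94 (SE 0.199) against MCS. The KO livers also varied more, with a coefficient of variation of 32.3% against 10.1% in controls. Without KO 1 the log2 fold change was -1.04.

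Jak2, the kinase bound to the receptor, was at 15.5, 16.1 and 18.7 CPM in WT Cre, 15.1, 17.2 and 17.8 CPM in MCS, and 17.0, 23.2, 20.3 and 25.0 CPM in KO livers. KO livers 2 to 4 lay above all controls and KO 1 lay within their range. The log2 fold change was 0.35 (SE 0.115), and 0.45 without KO 1. The call was lost under 6 of 18 alternative analyses, among them the omission of WT Cre 1 (0.33), WT Cre 2 (0.34), MCS 1 (0.33), KO 2 (0.32) or KO 4 (0.27), and it was not made against WT Cre or MCS alone. Against all controls, Ghr was thus lower in all 4 KO livers and Jak2 higher in 3 of them.

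Stat5a and Stat5b lie 8627 bases apart on chromosome 11 and encode the transcription factors at the centre of the pathway. Stat5a was at 19.5, 19.1 and 18.9 CPM in WT Cre, 15.2, 12.1 and 15.5 CPM in MCS, and 18.2, 17.7, 18.6 and 16.9 CPM in KO livers. KO livers thus lay below all WT Cre and above all MCS livers, with log2 fold changes of -0.10 (SE 0.112) and 0.32 (SE 0.113). Only the second met the call rule, and against the pooled controls the value was 0.10 (SE 0.130) and not called. The Stat5a gene overlaps Stat3 on the opposite strand, and reads of the overlap cannot be told apart unless strand was used in counting, which is not stated.

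Stat5b was at 64.7, 51.3 and 64.2 CPM in WT Cre, 54.5, 56.2 and 64.5 CPM in MCS, and 40.2, 52.3, 53.4 and 44.7 CPM in KO livers. KO 1 and KO 4 lay below all controls. The log2 fold change was -0.31 (SE 0.109), a call lost under 11 of 18 alternatives, among them the omission of WT Cre 1 (-0.29), WT Cre 3 (-0.28), MCS 3 (-0.29), KO 1 (-0.24) or KO 4 (-0.29). With scaling by library size only it was -0.13 and on FPKM -0.11 to -0.12. Per kilobase of exon, Stat5b was 4.68 ± 0.881 times Stat5a in controls (n = 6) and 3.44 ± 0.433 times in KO livers (n = 4). The ranges of this ratio, 3.46 to 5.98 and 2.84 to 3.81, overlapped. Its size depended on the measure. In FPKM, Stat5b was at 8.00 to 10.4 in controls and Stat5a at 3.04 to 5.25. In KO livers Stat5b was at 6.60 to 9.49 and Stat5a at 4.49 to 5.21.

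Igf1 (chr10:87858265-87937042, plus strand) encodes the circulating growth factor that liver makes under growth hormone. It was at 480.1, 563 and 466 CPM in WT Cre, 736, 679 and 588 CPM in MCS, and 277, 320.1, 341 and 338 CPM in KO livers. No KO liver reached the lowest control. The means were 585 ± 107 (n = 6) and 319 ± 29.4 CPM (n = 4), a 1.84-fold lower level and a log2 fold change of -0.88 (SE 0.145). It was -0.66 (SE 0.126) against WT Cre and -1.07 (SE 0.126) against MCS. In the deposited FPKM values, tested with limma, the change was -0.34 at either pseudocount and not called.

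Igfals encodes the acid-labile subunit that holds IGF1 in its long-lived circulating complex and is another STAT5 target. It was at 93.7, 105 and 103 CPM in WT Cre, 123, 129 and 72.0 CPM in MCS, and 102, 123, 120.1 and 93.5 CPM in KO livers. KO and control livers overlapped, and the log2 fold change was 0.07 (SE 0.150). Without MCS 3, the lowest control, it was -0.01. Per kilobase of exon, the ratio of Igf1 to Igfals was 1.83 ± 0.409 in controls (range 1.44 to 2.61) and 0.940 ± 0.148 in KO livers (range 0.831 to 1.16). The ranges did not overlap, while that of Igf1 to Ghr did (1.06 ± 0.118 and 1.13 ± 0.441). In the deposited FPKM values the Igf1 to Igfals ratios of KO and control livers overlapped. KO 4 held 238 of Igf1 and 40.9 of Igfals, and WT Cre 3 held 214 and 41.7.

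**Figure D2:**
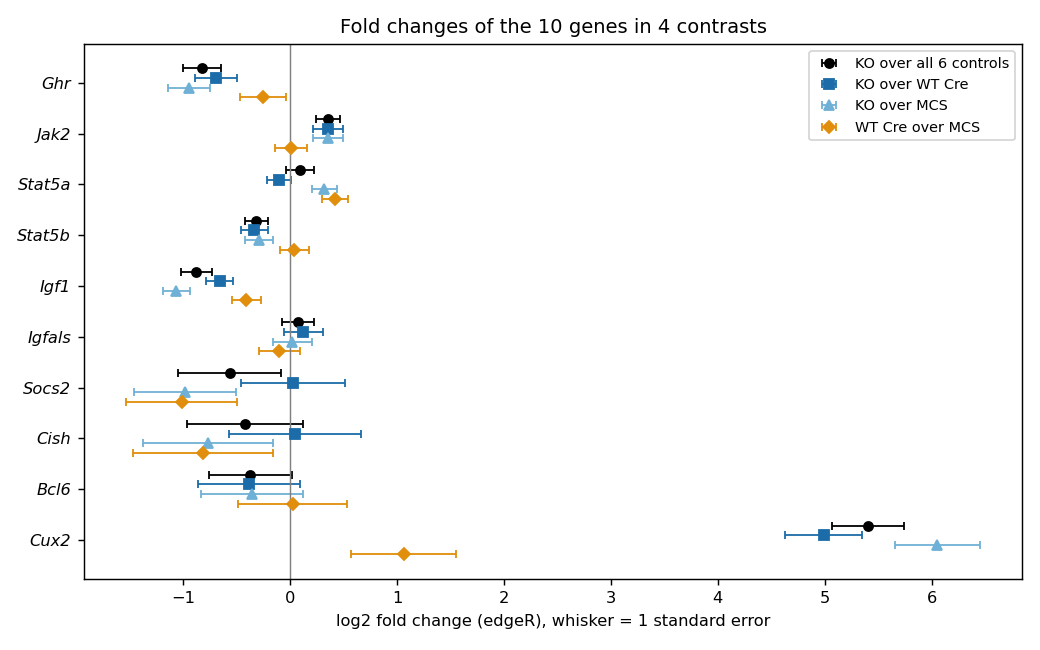
Points are log2 fold changes from edgeR (x axis) for each gene, with whiskers of 1 standard error, for KO over all 6 controls, KO over each kind of control, and WT Cre over MCS. The 2 KO comparisons against 1 kind of control share the KO livers. Cux2 stands at 4.99 to 6.05 in the KO comparisons, Ghr and Igf1 lie to the left of 0 in all of them, and the whiskers of Socs2, Cish and Bcl6 are the widest.

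Socs2 and Cish encode SOCS-family inhibitors that STAT5 induces and that damp receptor signalling. Socs2 was at 7.54, 14.0 and 9.49 CPM in WT Cre, 11.8, 38.2 and 12.5 CPM in MCS, and 5.41, 9.92, 11.04 and 15.5 CPM in KO livers. Cish was at 15.8, 33.3 and 12.4 CPM in WT Cre, 8.06, 60.0 and 40.1 CPM in MCS, and 16.3, 18.9, 21.03 and 28.2 CPM in KO livers. MCS 2 was the highest of all 10 livers for both genes. The log2 fold changes were -0.57 (SE 0.481) and -0.42 (SE 0.542), neither called. Against MCS alone they were -0.98 (SE 0.477) and -0.77 (SE 0.606), and against WT Cre 0.03 (SE 0.486) and 0.05 (SE 0.614).

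Bcl6 was at 28.1, 14.7 and 21.6 CPM in WT Cre, 34.2, 14.9 and 14.1 CPM in MCS, and 6.71, 26.3, 18.7 and 13.8 CPM in KO livers. KO 1 was lowest of all 10. The log2 fold change was -0.37 (SE 0.387) and not called. In controls, the SD of log2 CPM of Cish, Socs2 and Bcl6 exceeded that of 98.9%, 97.3% and 92.4% of genes with a mean of at least 1 CPM, against 32.8% for Ghr and 21.6% for Jak2.

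**Figure D3:**
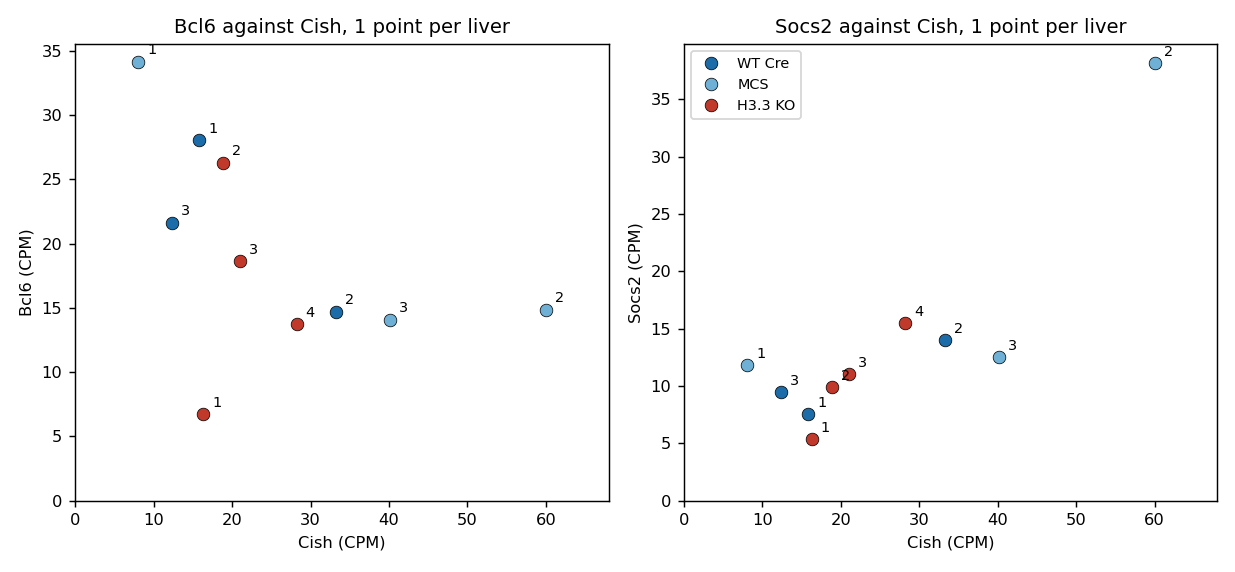
Each point is 1 liver, numbered by replicate, with Bcl6 (left) or Socs2 (right) against Cish (both axes in CPM from 0). The 3 livers with the highest Cish (MCS 2, MCS 3 and WT Cre 2) held 14.1 to 14.9 CPM of Bcl6, KO 1 was low in both, and MCS 2 was alone at the upper right for Socs2.

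These 3 genes were compared across the 6 control livers, as 3 of 45 pairs of members. Pearson's r of Cish and Bcl6 was -0.91 (exact permutation p = 0.0292, adjusted p = 0.5) and Spearman's rho was -0.77 (exact permutation p = 0.103, adjusted p = 0.8). Without the 2 livers farthest from the median, MCS 1 and MCS 2, r was -0.87. For Cish and Socs2 r was 0.71 (exact permutation p = 0.0833, adjusted p = 0.547) and rho was 0.71 (exact permutation p = 0.136, adjusted p = 0.8), and r without MCS 2 and WT Cre 1 was 0.61. For Socs2 and Bcl6 r was -0.56 (exact permutation p = 0.261, adjusted p = 0.778) and rho was -0.60 (exact permutation p = 0.242, adjusted p = 0.8), and r was -0.44 without the same livers. The largest absolute r among the 45 pairs was that of Ghr and Stat5a, at -0.93 (exact permutation p = 0.0278, adjusted p = 0.5). None of the 45 pairs passed the adjustment, and with 3 livers of each kind of control no value within a kind was computed. The pairs were examined after the data had been seen.

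Cux2 (chr5:121856366-122050102, minus strand) encodes a homeodomain factor that is female-biased in mouse liver. It was at 0.63, 0.35 and 1.15 CPM in WT Cre, 0.20, 0.54 and 0.28 CPM in MCS, and 20.5, 22.4, 30.4 and 18.2 CPM in KO livers. In counts this was 5 to 29 per control library and 314 to 721 per KO library, so the control level rests on few reads. Every KO liver lay far above every control. The means were 0.524 ± 0.346 (n = 6) and 22.8 ± 5.31 CPM (n = 4), a 43.6-fold higher level and a log2 fold change of 5.40 (SE 0.335). It was 4.99 (SE 0.357) against WT Cre and 6.05 (SE 0.398) against MCS, and 5.45 without KO 1. The direction and the call held in all 18 alternatives, with values from 2.03 on FPKM to 5.82. Per kilobase, Cux2 was at 0.0178 ± 0.0107 times Bcl6 in controls and at 1.14 ± 0.629 times in KO livers. In FPKM, Cux2 was at 0.196 to 1.40 in controls and Bcl6 at 2.57 to 6.41. In KO livers Cux2 was at 4.37 to 8.24 and Bcl6 at 1.13 to 6.26. The Cux2 locus overlaps 2 antisense transcripts, Gm3970 and Gm15637, whose reads cannot be told apart from it without strand. The same limit holds for Igf1 (Igf1os), Cish (Gm17040 and Gm17041) and Bcl6 (Gm37419), which also overlap opposite-strand genes.

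Ordered by level per kilobase of exon in controls, Igf1 (59.1 ± 10.8 CPM per kb) and Ghr (55.6 ± 5.62) did not differ beyond their spread, and Igfals (32.97 ± 6.51) and Stat5b (10.7 ± 1.08) followed. Cish (4.41 ± 3.11), Jak2 (3.33 ± 0.276), Bcl6 (3.17 ± 1.25), Stat5a (2.34 ± 0.410) and Socs2 (1.64 ± 1.18) overlapped their neighbours, and Cux2 was last (0.0519 ± 0.0342). In KO livers Igfals (34.7 ± 4.49), Igf1 (32.2 ± 2.97) and Ghr (31.5 ± 10.1) overlapped at the top. Cux2 (2.27 ± 0.527) stood among Stat5a (2.504 ± 0.105) and Bcl6 (2.44 ± 1.23) in these livers. In the deposited FPKM values the order differed. Igf1 was at 214 to 311 in controls and 170 to 238 in KO livers, above Ghr (151 to 171 and 70.6 to 147). Igfals was at 23.8 to 44.9 and 40.9 to 52.9. Jak2 (2.15 to 2.89) lay below Stat5a (3.04 to 5.25) in controls.

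The comparison of WT Cre with MCS controls was not used to choose the members. None of the 10 was called by edgeR, as 0.927% of genes were, and 2 had an unadjusted p under 0.05. Stat5a gave 0.42 in log2 units (adjusted p = 0.151 in edgeR, SE 0.120), higher in all WT Cre than in all MCS livers, and Igf1 gave -0.41 (adjusted p = 0.247 in edgeR, SE 0.136). DESeq2 called 1, Stat5a (adjusted p = 0.0406). Against WT Cre alone 3 members (Ghr, Igf1 and Cux2) met the rule, and 28.4% of genes did. Against MCS alone 4 did (Ghr, Stat5a, Igf1 and Cux2), and 32% of genes did. The KO livers are shared by both comparisons.

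Around the receptor, 10 of 25 growth hormone signalling proteins rose in KO against the pooled controls and 1 fell, with a median log2 fold change of 0.28. The share called was 44.0%, near the 36.3% of all genes. Socs1, another JAK inhibitor, rose by 1.38 in log2 units (SE 0.440), and Cbl, a ubiquitin ligase, by 0.96 (SE 0.174). Socs1 was near the floor, at 0.24 to 1.04 CPM in controls and 0.52 to 2.25 CPM in KO livers. These ranges overlapped, with KO 1 the lowest KO liver. Against WT Cre alone the Socs1 value was 0.96 (SE 0.469), not called. Grb10, an adaptor, rose by 0.89 and Ptpn1, a phosphatase that acts on JAK2, by 0.80. Socs6 was the member that fell, by 0.40. Socs3, the STAT3-induced inhibitor, was at 0.60 (SE 0.657) and not called.

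Among 9 tested related receptors, Prlr, the prolactin receptor, and Lepr, the leptin receptor, rose, and none fell, a share of 22.2% called, below the 36.3% of all genes. Prlr was at 84.1 to 142 CPM in controls and at 217 to 256 CPM in KO livers. Its log2 rise was 1.15 in edgeR (SE 0.134). Lepr rose by 1.63 (SE 0.471), with overlapping livers. Against MCS alone the Lepr value was 1.18 (SE 0.497), not called. Of 13 IGF carriers and regulators, 5 rose and 1 fell (46.2% called, beside 36.3% of all genes), with a median of 0.95. Igf2, the fetal IGF, had at most 2 counts in any control and 34, 1859, 2723 and 2740 counts in the KO livers, KO 1 being the lowest. Pappa2, an IGF-binding-protein protease, had no counts in controls and 0, 39, 56 and 100 in KO livers, at least 14.5-fold higher on average than a floor of 3 counts per library. Pappa2 was called against the pooled controls but not against WT Cre or MCS alone. Igfbp5 rose by 3.35 (SE 0.355) and Igfbp7 by 0.64. Igfbp4 fell by 0.43, but the livers overlapped, the value against WT Cre alone was -0.17 and not called, and the call was lost under 10 of 18 alternatives, among them the omission of any 1 MCS liver or of KO 2, KO 3 or KO 4. Igfbp1, a hormone-responsive carrier, was at -0.33 (SE 0.865) and not called.

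Of 15 liver transcription factors that act with STAT5, 2 rose and 5 fell (46.7% called, beside 36.3% of all genes), with a median of -0.35. Trim24 rose by 2.40 (SE 0.171) and Esr1, the estrogen receptor, by 1.23 (SE 0.174). Nr1i3 fell by 1.34, Foxa2 by 1.08 and Nr3c1, the glucocorticoid receptor, by 0.43. Hnf4a was at -0.55 (SE 0.227) and Onecut1 at -1.35 (SE 0.628), neither called. Of 16 STAT3-driven acute phase genes, 43.8% were called, near the 36.3% of all genes. In this list 2 rose (Saa3 and Il1rn) and 5 fell. Of these, Orm3 fell by 3.55 and the fibrinogen genes Fgb, Fga and Fgg by 1.73, 1.70 and 1.66. Orm3 was near the floor in KO livers, at 0.456 CPM in KO 1 and 0.119 to 0.306 CPM in the others. Its call was lost without KO 1 (-3.79), whereas the fibrinogen genes stayed called. Without MCS 3, 7 genes of the list rose. The list's median was -0.62 against all controls, 0.16 against WT Cre and -1.06 against MCS.

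Of 19 tested female-biased liver genes, 14 rose and 1 fell in the male KO livers, with a median log2 fold change of 3.22. The median was 2.36 with Sult2a1, whose control libraries summed to 2 counts, set at its floor. Cyp3a41a rose by 8.61 (SE 0.764), Cyp2b13 by 7.12 (SE 1.18), A1bg by 6.25 (SE 1.19) and Cyp3a44 by 5.42 (SE 0.723). KO 1 stood apart in these genes. A1bg was at 41.0 CPM there and at 2.33 to 2.95 CPM in the other KO livers, and Cyp2b13 was at 213 against 7.50 to 24.3 CPM, whereas Cyp3a41a was lower in KO 1 (6.39 against 38.5 to 76.5 CPM). Without KO 1 the rises were 4.06 for A1bg, 5.28 for Cyp2b13, 8.97 for Cyp3a41a and 5.76 for Cyp3a44, all called. Against WT Cre alone 13 of the 19 rose and 2 fell, and against MCS alone 13 rose and 1 fell. Tox fell by 1.45. Of 16 male-biased genes, 4 rose and 3 fell against the pooled controls, with a median of -0.66. The direction of this list depended on the kind of control: against WT Cre 6 rose and 2 fell, with a median of 0.82, and against MCS 2 rose and 8 fell, with a median of -0.94. The list summed to 4903 to 6493 CPM in WT Cre, 9119 to 13802 CPM in MCS and 7134 to 9962 CPM in KO livers, and WT Cre against MCS called 2 of its genes, Cyp2d9 and Cyp4a12b, both lower in WT Cre.

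Elovl3, a fatty acid elongase, fell by 3.75 (SE 0.299), Keg1 by 0.89, and Gstp1 rose by 0.79, all called against either kind of control. Cyp4a12a rose by 1.61 and was also called against both. Cyp2d9 rose by 0.82 against the pooled controls, and was at 1.32 against WT Cre, called, and at 0.45 against MCS, not called. Its pooled call was lost without KO 1 (0.67), which held 2520 CPM against 1641 to 1903 CPM in the other KO livers. C6 rose by 1.30, and was at 1.91 against WT Cre, called, and at 0.87 against MCS, not called. Ugt2b38 fell by 1.19, and was at -1.50 against MCS, called, and at -0.80 against WT Cre, not called, and its pooled call was lost without KO 1 (-0.94). Of the called genes, 14 of 15 female-biased and 4 of 7 male-biased ones were thus higher against the pooled controls. The share called was 78.9% and 43.8%, beside the 36.3% of all genes. Cyp2, Cyp3a and Gstp genes have near-identical copies, so their counts are uncertain. Xist had at most 6 counts in any liver.

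**Figure D4:**
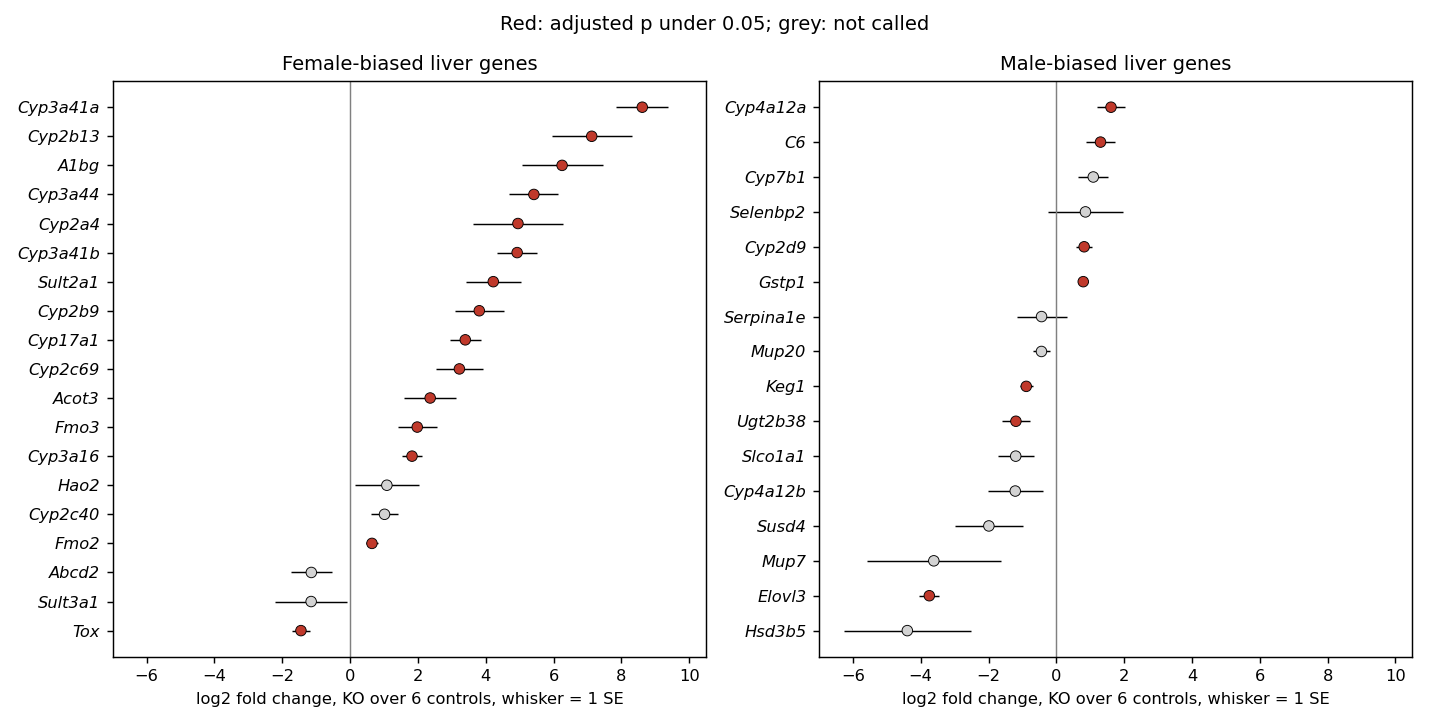
Points are log2 fold changes of KO over the 6 controls (x axis, edgeR, whiskers of 1 standard error) for 19 female-biased genes (left) and 16 male-biased genes (right). Red points passed adjusted p under 0.05. On the left 14 red points lie to the right of 0 and 1 (Tox) to the left, and on the right 4 lie to the right and 3 to the left.

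The genes with profiles most like those of 5 members over the 10 livers were found by the root mean square difference of centred log2 CPM among 13209 genes. Those nearest to Ghr were Gstz1 (0.0929), Mgam (0.0985) and Paox (0.101). Those nearest to Igf1 were Kdm5d (0.126), Zfp397 (0.142) and Slc27a2 (0.146). Socs2 and Bcl6 had less similar neighbours, Rgs3 (0.327), Tuft1 (0.357) and Gtpbp4 (0.377) for the first and Snx29 (0.284), Snhg4 (0.335) and Tbc1d2 (0.336) for the second. Cux2 was nearest to Cdhr2 (0.507), Bspry (0.570) and Diaph3 (0.574), which were at 0.137 to 0.203 CPM in controls and 8.35 to 10.8 CPM in KO livers.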

How the data were processed

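Livers of 10 male mice were profiled by RNA-seq. The authors trimmed reads, aligned them to mm10 with STAR and counted them per gene with HOMER; the labels also name HTSeq and Cufflinks. The deposited count table holds unnormalized counts. The deposited FPKM table was used only as an alternative, since a count test cannot use it. How reads with several matches and strand were handled is not stated. Totals were 14998426 to 26096141 counts, which limits precision for Cux2 in controls. GENCODE M21 gave coordinates and merged exon length.

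Genes with at least 10 counts in all were tested with edgeR 4.0.16 (R 4.3.3, quasi-likelihood F test, TMM, robust), with Benjamini-Hochberg adjustment over 22449 genes. The SE was derived from F as the absolute log2 fold change divided by its root. The 4 KO livers were set against all controls, then with WT Cre and MCS controls in a 3-group fit. Alternatives were DESeq2 1.42.0, limma 3.58.1 on log2(FPKM + 1) and log2(FPKM + 0.1), other scaling and filters, a replicate block, and omission of each liver. Scripts were tested on simulated data. Correlations used exact permutation of 6 livers. Named genes were all members, up to 4 called genes per list with the largest rise and fall, 6 further genes (Socs1, Socs3, Prlr, Igfbp1, Onecut1 and Hnf4a), and 3 nearest profiles for 5 members. One gene that this rule selects is not reported here. The other marker lists gave 8 of 9 T and NK, 3 of 7 B and plasma, 3 of 5 neutrophil, 1 of 7 endothelial, 1 of 6 cholangiocyte and 0 of 5 erythroid genes called, all higher. Of all genes, 19.7% were called higher. Members and lists were chosen with earlier results of these data known. The sample titles only number the replicates, and each was taken as a separate mouse. The p-values weigh differences between groups against the spread between these livers.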

Additional observations from a re-analysis of the deposited data

Results flagged for a closer look

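Socs2 in MCS 2 was far from the other controls, at 38.2 CPM against 7.54 to 14.0 CPM in the other 5, a gap of 0.789 of the whole range. Of 20 groups of values examined in this way, this was the 1 found, and chance gives about 1 in 20. Cish was also highest in that liver (60.0 CPM).

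Stat5a lay on opposite sides of the control kinds, below all WT Cre and above all MCS livers in every KO liver. The difference between the controls themselves was 0.422 in log2 units (adjusted p = 0.151 in edgeR, SE 0.120), so it did not pass the test by edgeR, while DESeq2 gave an adjusted p of 0.0406.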

How the results depend on the processing

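Over 18 alternatives, Ghr and Cux2 kept their call and direction, with log2 fold changes of -1.04 to -0.65 for Ghr. Igf1 kept direction and lost its call on FPKM. The members' log2 fold changes held direction and side of the threshold in 160 of 180 cases, 19 lost the call and 1 reversed: Igfals was at -0.014 without MCS replicate 3, the low end of a range up to 0.14 with 1 liver left out. The number of members called, 5, was 3 on FPKM with either pseudocount, 3 with the replicate block, and 3 to 5 with 1 liver left out. Deviations of same-numbered livers correlated at -0.039 to 0.111, and those of differently numbered livers at -0.154 to 0.194. No pairing by number was seen, but groups of 3 or 4 livers are too small to settle it. WT Cre against MCS gave 208 genes, 651 by DESeq2 (1 member), 386 with the block and 70 to 141 with 1 liver left out. Scaling by library size only shifted the median of all genes by 0.175 and the share of called genes that were higher from 54.3% to 72.2%; on FPKM it was 69.7% and 69.1%. With library size only, list counts were 0 lower for signalling proteins, 4 higher for related receptors, 0 lower for IGF carriers and 3 lower for transcription factors. DESeq2 gave 5 male-biased genes lower. The block gave 1 related receptor higher, 0 IGF carriers lower and 3 acute phase genes lower. With 1 liver left out the ranges were 1 to 2 signalling proteins lower, 1 to 3 related receptors higher and 0 to 1 lower, 3 to 6 IGF carriers higher (3 without KO 2) and 0 to 1 lower, 1 to 2 female-biased genes lower and 2 to 7 acute phase genes higher. The cause of these moves was not tested.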
